A study of Mus musculus with 4 samples.

Results

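The genes described here are 32 components of innate RNA sensing and the interferon response: receptors that detect foreign or abnormal RNA, the receptor and transcription factors that carry the interferon signal, and proteins made in answer to it. They were chosen by name, with earlier results of these data known, and all 32 are among the 55353 gene symbols counted. Ribosomal-RNA-depleted total RNA of E14 embryonic stem cells, a mouse line of strain 129 origin that needs no feeder layer and was grown on gelatin in serum with LIF, was sequenced from both ends. The compared groups are 2 libraries of cells of the genotype Ssrp1 KO, made with Cas9 and a guide RNA, and 2 libraries of wild-type cells, called controls. Both are cultured cells, and neither is described as having been given interferon, viral RNA or another stimulus. The protocol text, which is the same for all 4 samples, also mentions an empty pSuper puro vector and puromycin selection for wild-type cells, without saying whether these controls received them. Nor do the labels say whether the knockout libraries come from 1 clone or whether a group's libraries come from separate cultures, so the spread behind the p-values may be technical.

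RNA sensors such as RIG-I and MDA5 bind double-stranded or otherwise unusual RNA in the cytoplasm and signal through the adaptor MAVS to the transcription factors IRF3 and IRF7, which switch on interferon genes. Secreted interferon binds the IFNAR receptor, whose kinases activate STAT proteins; STAT2 and IRF9 are subunits of the factor ISGF3, which binds interferon-stimulated response elements in the promoters of their target genes. Embryonic stem cells are known for a weak interferon response compared with differentiated cells. Ssrp1 encodes a subunit of FACT, which loosens and restores nucleosomes in the path of RNA polymerase.

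The libraries held between 22611434 and 25344190 counts. Ssrp1 transcript was not lower where the gene had been targeted: it was at 305 and 327 CPM in the knockout-labelled libraries, against 282 and 306 CPM in the controls (normalised CPM, counts scaled to a common library size by TMM), a difference of 0.11 ± 0.06 on the log2 scale (SE; adjusted p 0.226, edgeR's quasi-likelihood test). Supt16, the partner subunit, averaged 1015 ± 54.1 CPM in the knockout-labelled libraries and 891 ± 12.8 CPM in the controls (SD, n = 2 each). It was called higher, as were 16.5% of all genes tested, at a log2 fold change of 0.19 ± 0.06 (SE, edgeR adjusted p 0.018). The Ssrp1 transcript level does not show a small Cas9 lesion, so the treated samples are called the knockout-labelled libraries. All 12 embryonic stem cell markers listed were measured, and of these 3 were called higher and 7 lower in the knockout-labelled libraries (83.3%, against 33.6% of all genes tested). Their summed level was 5254 and 5164 CPM in the knockout-labelled libraries, against 6358 and 6465 CPM in the controls. Ribosomal-RNA-like reads took between 4.64% and 6.30% of counts in the knockout-labelled libraries and between 9.72% and 10.3% in the controls, and the part of this difference in the results was not tested.

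The level of the 32 genes ran from 0 counts to 191 CPM. Enough counts for the test were found for 20, and 12 fell below the filter (at least 10 counts in a library of typical size, in 2 libraries). Among the 20, 4 were called higher (Bst2, Irf1, Samhd1 and Trim25) and 4 lower (Xaf1, Tyk2, Eif2ak2 and Ddx58) in the knockout-labelled libraries, at an adjusted p under 0.05. The 12 others missed that threshold. The 8 calls amount to 40.0% of the genes tested, read against 33.6% of all 17482 genes tested (16.5% higher and 17.2% lower), a share near the background in this fit. By DESeq2 the share was 26.7% of 30 genes with a count, against 13.6% of all such genes. With at least 5 CPM in 2 libraries it was 60% of 15, against 43.1%. The list itself was not tested. The background was lower when a control library was left out, at 21.8% of all genes without control replicate 1 and 22.4% without control replicate 2, while the 20 genes tested kept the same 8 calls. For 13 of the 20 genes, or 65.0%, the libraries of a group lay all above or all below those of the other, against 66.6% of all genes. Zbp1, 1 of the 13, passed the filter only through the knockout-labelled libraries. The median log2 fold change of the 20 genes was 0.04, beside 0.00 for all genes. The calls thus went in both directions, in equal number. All 8 calls also held in each of 11 alternative analyses, which included DESeq2 and leaving out each library in turn.

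**Figure D1:**
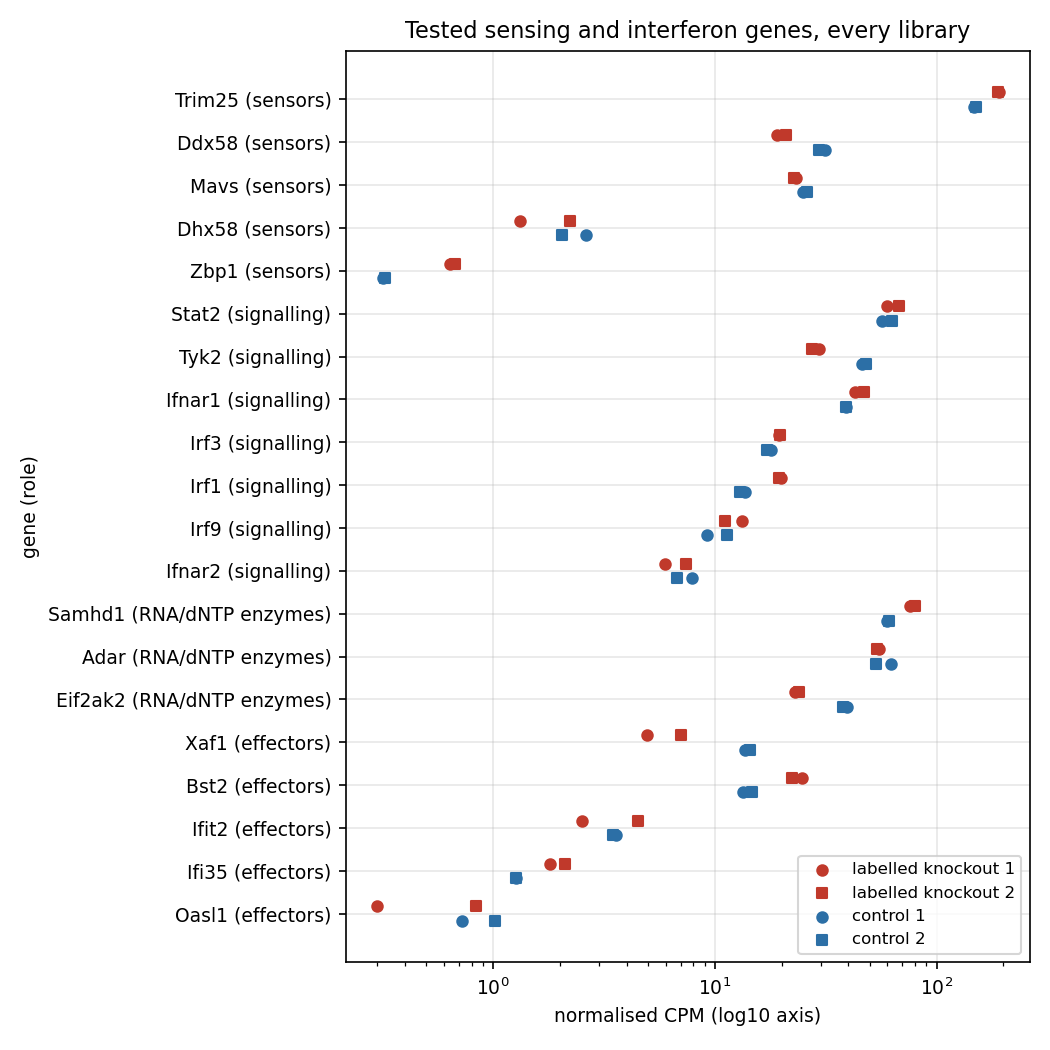
Normalised CPM (log10 axis) of the 20 tested genes in each library, grouped by role; red symbols are the 2 knockout-labelled libraries and blue symbols the 2 controls. Ddx58, Tyk2, Eif2ak2 and Xaf1 have both red symbols to the left of both blue ones, and Trim25, Irf1, Samhd1 and Bst2 have both to the right.

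The promoters were searched for the element through which interferon acts on many of its targets. RefSeq promoter windows on GRCm38.p6, from 250 bases before to 50 after the transcript start, were found for 27 of the 32 genes; Dhx58, Mx1, Mx2, Zbp1 and Rtp4 had no entry. The core of the interferon-stimulated response element, searched as GAAANNGAAA on both strands, occurred in a window of 10 of the 27 genes (37.0%), against 3.99% of the 27025 genes in the table. The stricter form GAAANNGAAAC occurred for 9 of them, against 0.944% of all genes. These 10 genes are Bst2, Cxcl10, Ddx58, Eif2ak2, Ifih1, Ifit1, Ifit3, Isg15, Rsad2 and Stat2. A match is a description of the letters, not of binding, and the 10 genes were not alike in expression: 6 had too few counts to test in these cells, 1 was called higher, 2 lower and 1 neither. Among tested genes whose windows lacked the core, 3 were called higher, 2 lower and 9 neither, and 33.6% of all genes tested were called. The windows of the 4 tested genes and of Isg15, the textbook target, show the element at different distances from the start, with the matches in capitals:
Ddx58, chr4:40239776-40240075, minus strand: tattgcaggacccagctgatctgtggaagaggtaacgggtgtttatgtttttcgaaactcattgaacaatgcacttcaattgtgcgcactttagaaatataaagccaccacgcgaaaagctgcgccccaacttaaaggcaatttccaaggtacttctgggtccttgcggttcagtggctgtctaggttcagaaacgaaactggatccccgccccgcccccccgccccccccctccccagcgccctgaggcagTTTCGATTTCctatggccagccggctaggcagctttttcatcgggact
Eif2ak2, chr17:78882523-78882822, minus strand: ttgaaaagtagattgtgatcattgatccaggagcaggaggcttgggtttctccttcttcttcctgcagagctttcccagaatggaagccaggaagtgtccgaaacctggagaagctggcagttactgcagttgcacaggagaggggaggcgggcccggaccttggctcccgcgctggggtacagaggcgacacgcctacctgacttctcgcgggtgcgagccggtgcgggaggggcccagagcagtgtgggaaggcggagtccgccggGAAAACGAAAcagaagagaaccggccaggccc
Bst2, chr8:71537423-71537722, minus strand: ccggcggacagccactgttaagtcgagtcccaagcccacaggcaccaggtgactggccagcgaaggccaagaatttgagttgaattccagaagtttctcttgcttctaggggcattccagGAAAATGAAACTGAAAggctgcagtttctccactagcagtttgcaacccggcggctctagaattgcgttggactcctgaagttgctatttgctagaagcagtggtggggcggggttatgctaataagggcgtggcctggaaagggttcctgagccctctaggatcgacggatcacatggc
Stat2, chr10:128270248-128270547, plus strand: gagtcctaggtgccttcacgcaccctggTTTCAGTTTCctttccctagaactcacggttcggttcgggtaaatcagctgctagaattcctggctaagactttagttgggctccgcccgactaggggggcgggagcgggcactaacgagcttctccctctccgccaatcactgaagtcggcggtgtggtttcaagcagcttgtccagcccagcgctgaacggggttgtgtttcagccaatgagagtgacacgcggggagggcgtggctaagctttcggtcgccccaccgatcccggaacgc
Isg15, chr4:156200769-156201068, minus strand: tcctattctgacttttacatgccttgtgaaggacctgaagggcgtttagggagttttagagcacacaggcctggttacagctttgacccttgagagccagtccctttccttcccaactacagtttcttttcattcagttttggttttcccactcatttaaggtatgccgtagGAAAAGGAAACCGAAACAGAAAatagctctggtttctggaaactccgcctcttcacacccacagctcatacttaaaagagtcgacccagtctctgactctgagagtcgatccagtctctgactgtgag

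In Ddx58 and Eif2ak2, which were both called lower, the match lies inside the transcribed part, beginning at base 3 and base 19 counted from the start. In Bst2, which was called higher, 2 overlapping matches begin at -130 and -124, and in Stat2 the match begins at -222. Isg15 holds 3 overlapping matches beginning at -78, -72 and -66, and had no count in any library. A palindromic form bound by STAT dimers, searched as TTCNNNGAA, which reads the same on both strands, occurred for 9 of the 27 genes (33.3%), against 9.55% of all genes; this motif was added after the values had been seen. These 9 were Adar, Bst2, Eif2ak2, Ifi35, Ifit2, Ifnar1, Ifnar2, Irf1 and Samhd1, and the match in Bst2 overlaps its response element. The match in the Irf1 window, in capitals here and shown because Irf1 was called higher, begins at -90:
Irf1, chr11:53769764-53770063, plus strand: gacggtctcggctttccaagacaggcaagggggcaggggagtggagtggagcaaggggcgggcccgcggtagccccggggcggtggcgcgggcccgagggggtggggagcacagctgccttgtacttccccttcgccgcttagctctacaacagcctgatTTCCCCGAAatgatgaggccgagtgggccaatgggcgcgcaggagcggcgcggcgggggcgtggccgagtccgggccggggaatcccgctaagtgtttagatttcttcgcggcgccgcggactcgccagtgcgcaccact

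**Figure D2:**
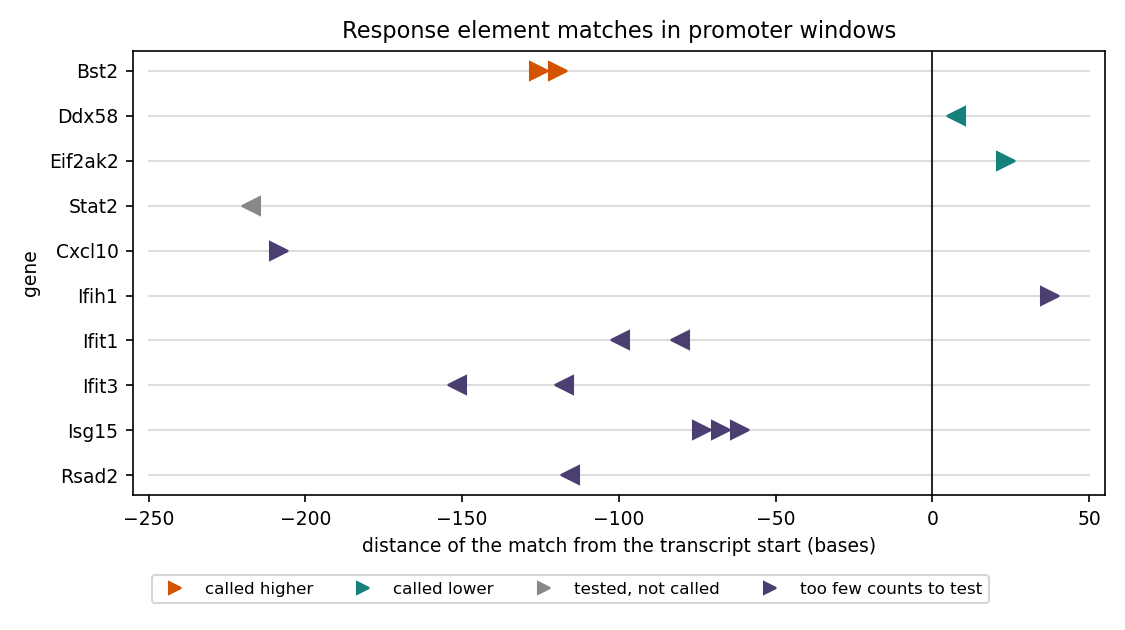
Position of the middle of each response element match (bases from the transcript start, at 0) in the promoter windows of the 10 genes that hold one; triangles point in the direction of the strand that carries the letters, and colour gives the expression call. Matches of genes called higher, lower or neither, and of genes with too few counts, are spread over the window, with first bases from -222 to 33.

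Among the sensors, Ddx58 (RIG-I, chromosome 4, 40203773 to 40239828, mm10), which detects RNA with an uncapped triphosphate end, was at 19.1 and 21.0 CPM in the knockout-labelled libraries, against 31.5 and 29.6 CPM in the controls. Both knockout-labelled libraries were below both controls. Its log2 fold change, -0.61 ± 0.10 (SE; n = 2 in each group), passed the test (edgeR adjusted p 1.5e-04). Trim25 (chromosome 11, 88999376 to 89020293), a ubiquitin ligase that acts on RIG-I and has other RNA-related roles, moved the other way, at 191 and 190.3 CPM in the knockout-labelled libraries, against 147 and 151 CPM in the controls. The libraries of each group lay close together and the groups did not overlap, at a log2 fold change of 0.35 ± 0.06 (adjusted p 2.2e-04, edgeR). Per kilobase of exon, Trim25 had the highest level of the 32 genes, 33.1 in the knockout-labelled libraries and 25.9 in the controls (mean normalised CPM per kilobase).

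Mavs, the mitochondrial adaptor of RIG-I and MDA5, was at 23.2 and 22.7 CPM in the knockout-labelled libraries, against 25.1 and 26.0 CPM in the controls. Its groups did not overlap, yet the log2 fold change of -0.15 ± 0.10 did not pass the test (adjusted p 0.270, edgeR). Dhx58 (LGP2), a relative of RIG-I that modulates the other sensors, was near the lower limit of the test, at 1.33 and 2.23 CPM in the knockout-labelled libraries, against 2.63 and 2.04 CPM in the controls, with overlapping groups and a log2 fold change of -0.39 ± 0.34 (adjusted p 0.405). Zbp1, a sensor of left-handed nucleic acid that can trigger cell death, was at 0.642 and 0.672 CPM in the knockout-labelled libraries, against 0.317 and 0.327 CPM in the controls. Those values rest on 15 and 16 counts in the knockout-labelled libraries and 7 and 8 in the controls. Zbp1 thus passed the filter only through the knockout-labelled libraries, and the estimate was imprecise (1.02 ± 0.58 on the log2 scale, edgeR adjusted p 0.190).

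The remaining sensors were at the floor. Ifih1 (MDA5), which detects long double-stranded RNA, had 0 counts in all 4 libraries; in the deepest of them 3 counts, the limit that a count of 0 allows, correspond to 0.123 CPM. Tlr3, which detects double-stranded RNA in endosomes, had 9 and 2 counts in the knockout-labelled libraries and 9 and 5 in the controls. Of the RNA sensors, then, RIG-I was transcribed in these cells at 30.5 CPM in controls while MDA5 was not detected.

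In the receptor, Ifnar1 (chromosome 16, 91485238 to 91507441) was at 43.0 and 47.0 CPM in the knockout-labelled libraries, against 39.2 and 39.0 CPM in the controls. Both knockout-labelled libraries lay above both controls, and the log2 fold change of 0.20 ± 0.09 missed the threshold (adjusted p 0.0744, edgeR). It passed in 3 of the 11 alternatives, with an adjusted p of 0.014 with scaling by library size alone, 0.043 with the stricter filter and 0.018 without knockout replicate 1. Ifnar2, the other chain, was at 5.99 and 7.44 CPM in the knockout-labelled libraries, against 7.89 and 6.78 CPM in the controls, with overlapping groups and a log2 fold change of -0.12 ± 0.18 (adjusted p 0.634).

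Tyk2 (chromosome 9, 21104068 to 21131243), the kinase bound to the IFNAR1 chain, had the smallest adjusted p of the 32 genes. It was at 29.4 and 27.4 CPM in the knockout-labelled libraries, against 46.2 and 48.1 CPM in the controls. Both knockout-labelled libraries were far below the controls, and the log2 fold change of -0.73 ± 0.09 had an adjusted p of 3.1e-06 by edgeR. Over the 11 alternatives it lay between -0.78 and -0.65. An antisense gene, 1700084C06Rik, covers 8.1% of the Tyk2 exons on the opposite strand, and no source used here says whether reads were counted by strand.

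The transcription factors of the pathway were present without Irf7. Stat2 was at 59.6 and 67.5 CPM in the knockout-labelled libraries, against 56.8 and 62.9 CPM in the controls, and Irf9 at 13.2 and 11.1 CPM in the knockout-labelled libraries, against 9.21 and 11.4 CPM in the controls; both had overlapping groups, with log2 fold changes of 0.09 ± 0.08 and 0.24 ± 0.15 (adjusted p 0.463 and 0.238 by edgeR). Irf3, the factor activated directly by the sensors, was at 19.4 and 19.7 CPM in the knockout-labelled libraries, against 18.0 and 17.1 CPM in the controls, a log2 fold change of 0.16 ± 0.11 (adjusted p 0.310). Its groups did not overlap but differed by little. Irf7, which amplifies the response and is itself induced by interferon, had 0 and 7 counts in the knockout-labelled libraries and 0 and 0 in the controls. All 7 counts came from a single library, and the other knockout-labelled library was at 0 like both controls.

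Irf1 (chromosome 11, 53770014 to 53778374), a factor induced by interferon gamma and other cytokines, was the factor of this family among the 32 genes that passed the test. It was at 19.9 and 19.5 CPM in the knockout-labelled libraries, against 13.7 and 12.9 CPM in the controls. The groups were well separated, at a log2 fold change of 0.56 ± 0.12 (SE; edgeR adjusted p 0.00104). It stayed between 0.52 and 0.65 over the 11 alternatives.

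**Figure D3:**
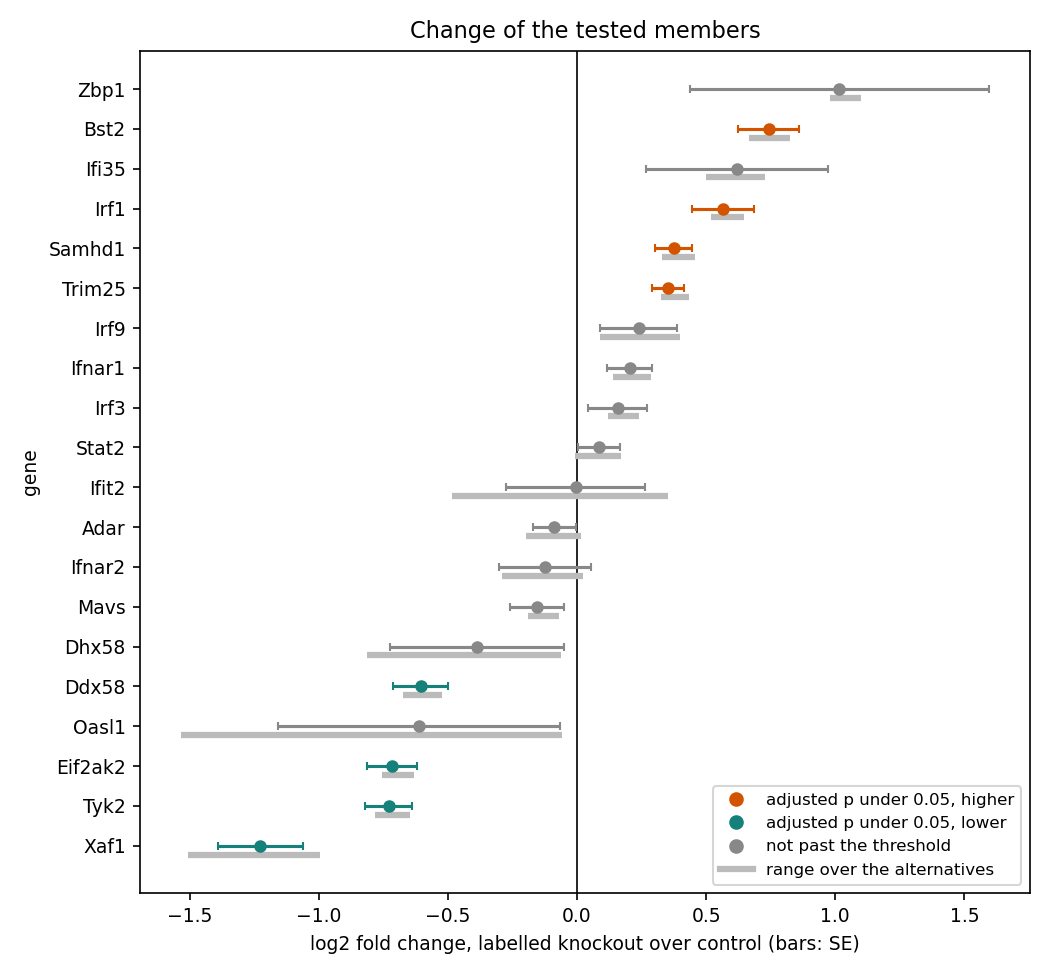
Log2 fold change of the 20 tested genes, knockout-labelled libraries over controls (points, with bars of 1 SE), ordered from highest to lowest; grey bands give the range over the 11 alternative analyses. The 4 genes called higher lie between 0.35 and 0.74 and the 4 called lower between -1.23 and -0.61, while Zbp1, Ifi35 and Oasl1, which were not called, have wide errors.

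Of the enzymes that act on double-stranded RNA or nucleotides, Eif2ak2 (chromosome 17, 78852564 to 78882573), which encodes PKR, the kinase that halts translation when it binds double-stranded RNA, was at 23.1 and 24.0 CPM in the knockout-labelled libraries, against 39.6 and 37.7 CPM in the controls. Both knockout-labelled libraries were below both controls, and the log2 fold change was -0.72 ± 0.10 with an adjusted p of 8.7e-06 (edgeR). Adar, which edits adenosine to inosine in double-stranded RNA and so keeps cellular RNA from being sensed, was at 54.9 and 54.0 CPM in the knockout-labelled libraries, against 62.3 and 53.6 CPM in the controls. Its groups overlapped, and the log2 fold change was -0.09 ± 0.08 (adjusted p 0.456). The neighbouring gene Chrnb2 covers 16.8% of the Adar exons on the opposite strand. Samhd1 (chromosome 2, 157097533 to 157135265), which degrades deoxynucleotides and limits retroviral copying, was at 75.9 and 80.4 CPM in the knockout-labelled libraries, against 59.7 and 60.9 CPM in the controls. It was higher in each knockout-labelled library than in either control, with a log2 fold change of 0.37 ± 0.07 and an adjusted p of 5.0e-04 by edgeR.

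Among the effectors, which interferon normally induces, 5 were tested, of which Bst2 was called higher and Xaf1 lower. Xaf1 (chromosome 11, 72301629 to 72313733), a proapoptotic partner of the inhibitor XIAP, showed the greatest fall of the 20 tested genes. It was at 4.96 and 7.06 CPM in the knockout-labelled libraries, against 13.7 and 14.4 CPM in the controls. The knockout-labelled libraries differed from each other more than the controls did, but both were well below them, with a log2 fold change of -1.23 ± 0.17 and an adjusted p of 9.4e-06 by edgeR. Without knockout replicate 2 the log2 fold change was -1.51, and without knockout replicate 1 it was -0.995. Bst2 (chromosome 8, 71534255 to 71537456), which encodes tetherin, a membrane protein that holds budding virus at the cell surface, was at 24.7 and 22.3 CPM in the knockout-labelled libraries, against 13.4 and 14.7 CPM in the controls. The groups did not overlap, and the log2 fold change of 0.74 ± 0.12 had an adjusted p of 6.3e-05 (edgeR). Per kilobase of exon it was second to Trim25, at 26.0 in the knockout-labelled libraries and 15.6 in the controls (mean normalised CPM per kilobase).

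Ifit2, whose product binds viral RNA, was at 2.52 and 4.50 CPM in the knockout-labelled libraries, against 3.58 and 3.47 CPM in the controls. The knockout-labelled libraries lay on either side of the controls, and the log2 fold change was -0.00 ± 0.27 (adjusted p 0.991, edgeR). Ifi35, an interferon-induced leucine zipper protein, was at 1.80 and 2.10 CPM in the knockout-labelled libraries, against 1.27 and 1.27 CPM in the controls; the groups were apart, and the log2 fold change of 0.62 ± 0.35 did not pass (adjusted p 0.190). The antisense gene Gm11626 covers 16.8% of its exons. Oasl1, an oligoadenylate synthetase-like protein known in mouse to restrain Irf7 translation, was at 0.299 and 0.841 CPM in the knockout-labelled libraries, against 0.726 and 1.02 CPM in the controls, with overlapping groups (log2 fold change -0.61 ± 0.55, adjusted p 0.418).

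The other 9 effectors, among them the genes most used to read an interferon response, were close to 0 in every library. Isg15, a ubiquitin-like modifier, had 0 counts in all 4. Ifit1, Ifit3, Rsad2 (viperin, an antiviral radical enzyme), Cxcl10 (a chemokine) and Rtp4 each had at most 5 counts in any library. Ifit1 had 3 and 1 counts in the knockout-labelled libraries and 0 and 0 in the controls. Rsad2 had 4 and 1 counts in the knockout-labelled libraries and 5 and 2 in the controls, and Cxcl10 had 1 and 2 counts in the knockout-labelled libraries and 0 and 4 in the controls. Ifit3 and Rtp4 had 2 counts and 1 count over both knockout-labelled libraries, and 1 count and 0 over both controls. The reads of Ifit3 are uncertain as well, since 51.2% of the 50-base words of its transcripts also occur in the neighbouring copy Ifit3b.

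Mx1, Mx2 and Oasl2 showed a few more counts in the knockout-labelled libraries. Mx1, an antiviral GTPase, had 8 and 4 counts in the knockout-labelled libraries and 0 and 1 in the controls, a ratio of scaled counts of 11.8 (exact 95% counting interval 1.75 to 506). Oasl2, a relative of Oasl1, had 5 and 9 counts in the knockout-labelled libraries and 0 and 2 in the controls, a ratio of 6.91 (1.59 to 62.6), and for both genes each knockout-labelled library was above each control. Mx2 had 1 and 8 counts in the knockout-labelled libraries and 3 and 0 in the controls, a ratio of 2.96 (0.739 to 17.0), with overlapping groups. These intervals cover counting error only. When all genes with at least 1 count were tested, 0 of the 10 low genes with a count passed (edgeR adjusted p between 0.201 and 0.917), 0 had an unadjusted p under 0.05, and DESeq2 called 0. The 12 low genes together had 31 and 37 counts in the knockout-labelled libraries and 18 and 14 in the controls. Over all gene symbols, too, more had a count in the knockout-labelled libraries (24721 and 24765) than in the controls (23497 and 23647). Whether the low genes differ from that background was not tested.

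**Figure D4:**
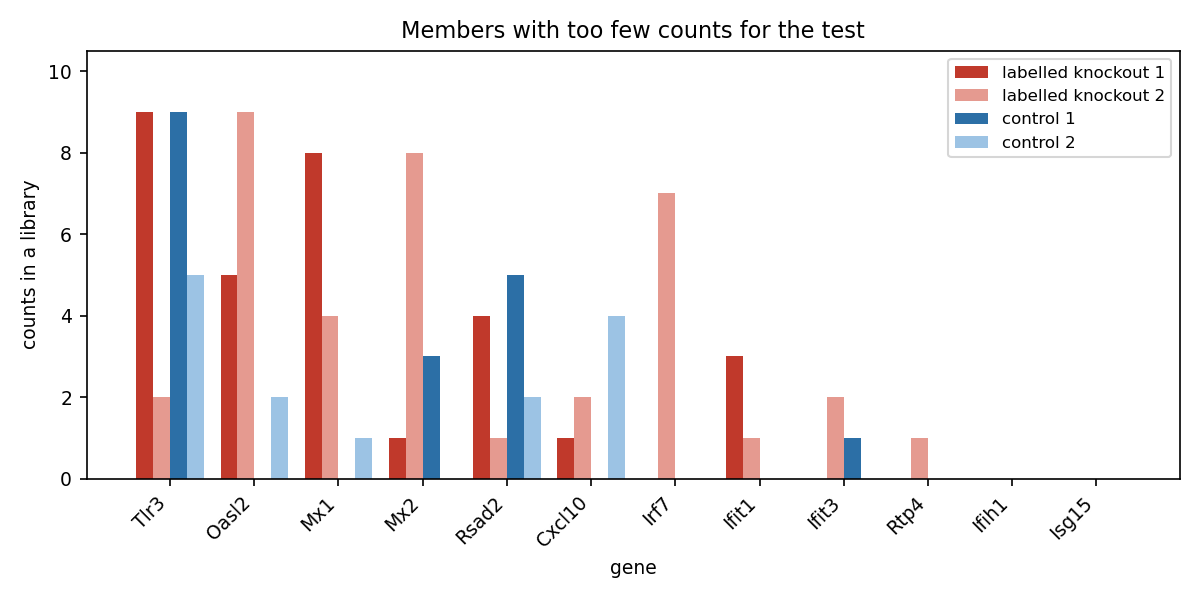
Counts in each library of the 12 genes below the filter, for the 2 knockout-labelled libraries (red) and the 2 controls (blue). No bar exceeds 9 counts, Isg15 and Ifih1 are at 0 throughout, and Mx1 and Oasl2 have their counts mostly in the knockout-labelled libraries.

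None of the 21 interferon genes listed, of types I, II and III and including Ifnb1, Ifna1 and Ifna11, had a count in any library. Of 66 further interferon-stimulated genes, 38 were tested, and 10 were called higher and 6 lower (42.1%, against 33.6% of all genes). The median log2 fold change was 0.08, beside 0.00 for all genes. Those tested include Sp110, Ddx60 and Irgm1, which passed the filter only through the knockout-labelled libraries. The count of rises and the share thus rest partly on the filter. Phf11d averaged 54.6 ± 2.25 CPM in the knockout-labelled libraries and 88.3 ± 2.91 CPM in the controls (SD, n = 2 each; log2 fold change -0.69 ± 0.07, adjusted p 5.1e-07 by edgeR). Ifi30, a lysosomal thiol reductase, averaged 52.4 ± 1.26 CPM in the knockout-labelled libraries and 89.8 ± 5.15 CPM in the controls (log2 fold change -0.78 ± 0.07, adjusted p 1.3e-07). Sp110, a nuclear body protein, had 42 and 40 counts in the knockout-labelled libraries and 1 and 1 in the controls, a ratio of scaled counts of 40.5 (exact 95% counting interval 10.8 to 340, counting error only), and passed the filter only through the knockout-labelled libraries. Of the 28 untested genes on that list, 12 were at 0 in all libraries.

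Of 37 tested genes that link sensors to interferon genes, 4 were called higher and 7 lower (29.7%, against 33.6% of all genes). Without control replicate 1 these were 1 and 4, without control replicate 2 they were 2 and 6, and by DESeq2 they were 2 and 5. Dhx9, a helicase that unwinds double-stranded RNA, averaged 649.9 ± 26.8 CPM in the knockout-labelled libraries and 416 ± 1.57 CPM in the controls (log2 fold change 0.64 ± 0.06, adjusted p 8.1e-08 by edgeR). Prkra, which encodes PACT, a protein activator of PKR, averaged 8.65 ± 0.0109 CPM in the knockout-labelled libraries and 18.0 ± 0.507 CPM in the controls (log2 fold change -1.05 ± 0.13, adjusted p 3.6e-06). It was thus called lower, as was Eif2ak2, the gene of the kinase it activates. Ikbkb, an inflammatory kinase, averaged 33.8 ± 2.51 CPM in the knockout-labelled libraries and 46.3 ± 0.137 CPM in the controls, a log2 fold change of -0.45 ± 0.09. Of 20 tested genes of interferon signalling outside the 32, 6 were called higher and 5 lower, or 55%, above the 33.6% of all genes. Without control replicate 2 they were 3 and 3, or 30%, against 22.4% of all genes, and by DESeq2 they were 4 and 3. Irf2bpl and Stat3 fell by 0.74 and 0.45 on the log2 scale, and Irf2bp2 was higher by 0.58 (adjusted p 3.7e-07, 3.0e-05 and 6.0e-06 by edgeR). Of 24 tested nucleases, editing enzymes and related double-stranded RNA-binding proteins, 5 were called higher and 2 lower (29.2%). Those called higher numbered 11 with scaling by library size alone, 3 by DESeq2, 8 without knockout replicate 2, 1 without control replicate 1 and 2 without control replicate 2, while 4 were called lower without knockout replicate 2. Adarb1, the other catalytic adenosine deaminase, averaged 30.2 ± 0.0689 CPM in the knockout-labelled libraries and 20.6 ± 4.74 CPM in the controls (log2 fold change 0.55 ± 0.12). The exonuclease gene Xrn1 had a log2 fold change of -0.28 ± 0.06.

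**Figure D5:**
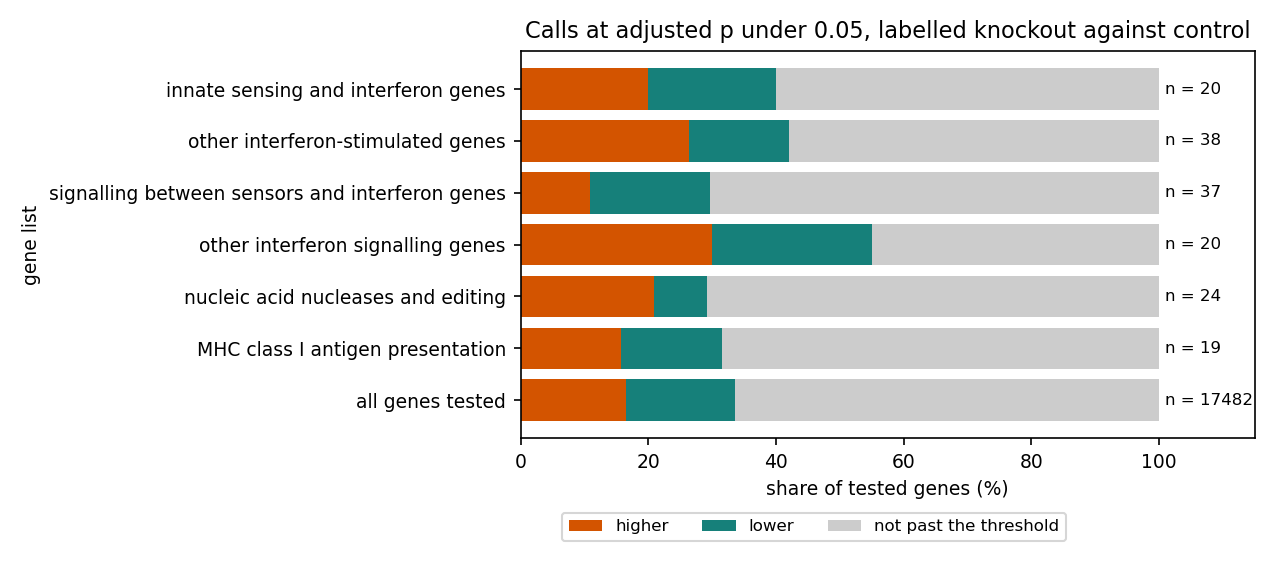
Share of the tested genes of each list called higher (orange), lower (green) or neither (grey) at an adjusted p under 0.05, with the number tested at the right; the bottom bar gives all 17482 genes. The 32-gene set, of which 20 were tested, has 4 calls in each direction, and the other lists shown, those of the pathway with tested genes, also hold calls in both directions.

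Markers of immune cells, which carry many of these genes at high levels, were mostly near 0. Of 22 listed, 5 were tested, 0 were called higher and 2 lower (40%, against 33.6% of all genes). Of the 22, 8 were at 0 in all libraries, and the pan-leukocyte gene Ptprc had 0 and 2 counts in the knockout-labelled libraries and 0 and 0 in the controls. Their summed level was 43.3 and 42.5 CPM in the knockout-labelled libraries, against 81.3 and 81.1 CPM in the controls, most of it from Laptm5 and Cd68, which were the 2 called lower. Primitive endoderm markers, by contrast, were called higher for 11 of 15 tested and lower for 1, against 16.5% and 17.2% of all genes. Their median log2 fold change was 1.18, beside 0.00 for all genes. Their sum was 779.7 and 805 CPM in the knockout-labelled libraries, against 736 and 697 CPM in the controls. Of 8 tested fibroblast markers 3 were called higher and 2 lower (62.5%, against 33.6% of all genes). Among those called higher, Col5a2 had 23 and 24 counts in the knockout-labelled libraries, against 3 and 5 in the controls. Only its knockout-labelled counts met the filter. Tagln, also called higher, had 46 and 53 counts in the knockout-labelled libraries, against 18 and 10 in the controls. Its count in control replicate 2, the deepest library, fell short of the filter, so this tally depends partly on the filter. With at least 5 CPM in 2 libraries, 4 fibroblast markers were tested, and 1 was called higher and 2 lower (75%, against 43.1% of all genes). The fibroblast sums were 113 and 114 CPM in the knockout-labelled libraries, against 155 and 156 CPM in the controls. Pdgfra is on both the primitive endoderm and the fibroblast list. The part of primitive endoderm transcripts in the changes of the sensing and interferon genes was not tested. In bulk RNA, fewer cells of a type and less RNA per cell cannot be told apart.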

How the data were processed

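RNA was measured in 4 libraries. The tools named are cutadapt, HISAT2 and featureCounts, on mm10, per the submitters' processing notes; no source used here gives versions, annotation, the strand setting or the treatment of multiply mapped reads. The authors deposited whole-number counts per gene symbol, without normalization. Column names carry OK where the titles carry KO, and 0 columns were unmapped. Reads shared between copies or overlapping genes can therefore be split or lost.

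Counts were filtered with filterByExpr of edgeR 4.0.16 in R 4.3.3 (minimum count 10, minimum total 15), scaled by TMM and tested by the quasi-likelihood F test of edgeR (no covariate, 2-sided, prior count 0.125, residual degrees of freedom 2). P-values were adjusted over 17482 genes by the Benjamini-Hochberg method, at a threshold of 0.05. SE is the log2 fold change divided by the square root of F. Total counts were between 22611434 and 25344190, so 3 counts, the floor, are between 0.123 and 0.136 CPM; intervals are exact (Clopper-Pearson, 95%) and cover counting error, as do floors. Between replicates a chi-square statistic per degree of freedom was 11.5 for the knockout-labelled libraries and 3.37 for the controls, so neither pair was a repeated library. Alternatives were RLE size factors, library size alone, no filter beyond 1 count, at least 5 CPM in 2 libraries, DESeq2 1.42.0, a replicate block, leaving out each library, and leaving out Gm26917 and Gm42418. Tested on simulated data of 17482 genes for this comparison, edgeR recovered 31 of 50 genes changed 1.5-fold, 35 of 50 changed 2-fold and 47 of 50 changed 4-fold. It made 10 calls among 17282 unchanged genes, and DESeq2 recovered 27, 30 and 44. Far fewer genes were changed there than the 33.6% called in the data, so these recoveries do not give the sensitivity of the comparison itself.

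Positions and exon lengths are from GENCODE M21. The members and lists were chosen with earlier results of these data known. Named are all members, Ssrp1, Supt16 and, from each companion list, the 3 genes past the threshold whose adjusted p was smallest (the 2 most abundant, or those with the highest total count, where none passed); 1 gene that this rule names is not reported here, and others are said to be chosen after their values were seen.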

Additional observations from a re-analysis of the deposited data

How the results depend on the processing

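All 8 called members kept their direction and an adjusted p under 0.05 in all 11 alternatives, so the counts called stayed at 4 lower, and at 4 or 5 higher, the fifth being Ifnar1. Leaving out each library in turn gave between 1915 (without control replicate 1) and 2995 genes called higher over all genes; DESeq2 called 1977 lower. Scaling by library size alone gave the members a median log2 fold change of 0.12; it moved all genes by 0.08 and made 63.7% of calls rises, against 48.95%. The members' median lay between -0.043 (without knockout replicate 2) and 0.14 (without knockout replicate 1) when single libraries were left out. Among members not called, Ifit2 changed sign under RLE size factors (0.0014) and library size alone (0.080), and ranged from -0.48 to 0.35 when libraries were left out. Leaving out single libraries, Stat2 ranged from -0.0093 (without knockout replicate 2) to 0.17, Ifnar2 from -0.29 to 0.023 (without knockout replicate 1) and Adar from -0.20 to 0.016 (without control replicate 1); the cause was not tested. The labels give same-numbered libraries nothing in common but the number. The correlation of their deviations was 0.020 across 11191 genes, which cannot exclude a shared culture or preparation. With a replicate block 3072 genes were called higher and 3216 lower, and the members' counts were 4 and 4. Depth limits the 12 low genes: in the deepest library a count of 0 allows a level of up to 0.123 CPM.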

Other observations

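Class I antigen presentation, a further target of interferon, had calls in both directions. Of 19 genes tested, 3 were called higher and 3 lower in the knockout-labelled libraries (31.6%, against 33.6% of all genes), a share near the background. With scaling by library size alone 5 were called higher and 3 lower, and by DESeq2 2 and 2 of 21. Pdia3 and Calr, chaperones of the endoplasmic reticulum that help load class I molecules among many other proteins, averaged 306 ± 7.66 CPM in the knockout-labelled libraries and 206 ± 0.640 CPM in the controls, and 638 ± 86.9 CPM in the knockout-labelled libraries and 461 ± 18.5 CPM in the controls (SD, n = 2 each; log2 fold changes 0.57 ± 0.06 and 0.47 ± 0.07, adjusted p 6.5e-07 and 5.8e-05 by edgeR). Tapbp, which encodes tapasin, the loading factor proper, averaged 14.4 ± 2.10 CPM in the knockout-labelled libraries and 23.7 ± 0.587 CPM in the controls (log2 fold change -0.72 ± 0.12, adjusted p 1.2e-04). B2m, the shared light chain of class I molecules, was chosen after its values were seen; it averaged 4.18 ± 0.0973 CPM in the knockout-labelled libraries and 7.93 ± 1.22 CPM in the controls (log2 fold change -0.92 ± 0.19, adjusted p 8.2e-04).

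Ddx60, Irgm1 and Gbp2, interferon-stimulated genes with few counts, were also chosen after their values were seen. Most of their counts fell in the knockout-labelled libraries, and the other low genes on the list of 66 were not summed. Over all gene symbols, too, more had a count in the knockout-labelled libraries (24721 and 24765) than in the controls (23497 and 23647). Ddx60, a helicase linked to RIG-I signalling, had 67 and 23 counts in the knockout-labelled libraries and 7 and 16 in the controls. Irgm1, an immunity-related GTPase, had 21 and 26 counts in the knockout-labelled libraries and 0 and 7 in the controls, and Gbp2, a guanylate-binding protein, had 9 and 10 counts in the knockout-labelled libraries and 0 and 1 in the controls, too few for the test. Other genes on the same list went the other way: Slfn8 averaged 1.63 ± 0.309 CPM in the knockout-labelled libraries and 5.28 ± 0.0959 CPM in the controls, and Helz2 7.57 ± 0.294 CPM in the knockout-labelled libraries and 14.9 ± 0.0240 CPM in the controls (adjusted p 3.7e-05 and 1.9e-05 by edgeR). Ddx60 and Irgm1 passed the filter on low counts only through the knockout-labelled libraries, so no p is given for them.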
